A study of Mus musculus with 3 samples.

Results

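Tyrosinase (Tyr), tyrosinase-related protein 1 (Tyrp1) and dopachrome tautomerase (Dct) are the related melanosomal enzymes that build melanin from tyrosine. Tyr catalyses the first and rate-limiting steps, Dct rearranges dopachrome into a carboxylated indole, and Tyrp1 acts on that indole in the eumelanin branch. All 3 genes are known targets of MITF, the master transcription factor of melanocytes, which binds an M-box in their promoters. TFAP2A (AP-2alpha) is a transcription factor of neural crest and melanocytes whose family binds a palindromic GC-rich site, and the question was where it sat on chromatin around each of these genes.

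The data were TFAP2A ChIP-seq peak lists from melan-a, an immortalised line of melanocytes from normal embryonic mouse skin with the genotype Cdkn2a tm1RDp/tm1RDp. The cells were untreated and were kept in medium with 12-O-tetradecanoylphorbol 13-acetate, a phorbol ester, and cholera toxin, conditions shared by all 3 samples. The samples were 2 TFAP2A ChIP replicates, made with the AP-2alpha (3B5) antibody and called replicate 1 and replicate 2 here, and 1 input without antibody, whose values were not analysed here. The line is a single line, and with no expression table in these data its melanocyte identity was not checked against marker genes.

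A peak belonged to a gene when its summit, the position of highest signal, lay in the gene body or within 100 kb of either end (mouse build mm9). This gave 25 peaks, 10 of the 18528 peaks in the replicate 1 list and 15 of the 21459 peaks in the replicate 2 list. Peaks that overlapped were merged, which left 19 of the 23607 merged regions of both lists, and a region that held peaks of both lists is called shared. Of the 19 regions, 6 were shared, 4 were in the replicate 1 list only and 9 in the replicate 2 list only. Over all regions 68.0% were shared. A promoter region had its summit between 5 kb upstream and 1 kb downstream of an annotated transcription start site (TSS) of that gene, and every other region is called distal. Positions are given from the 5′ end of each gene on its own strand, with negative values upstream.

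The sequences that the results turn on are printed 5′ to 3′ on the strand of the gene, from the mm9 genome, with TFAP2 sites (GCCNNNGG), M-boxes (TCATGTG) and, in 1 region, a SOX site (ACAAAGG or ACAATGG) in capitals. Sites were searched on both strands. The promoter M-box nearest to the 5′ end is shown first, because it is the element the 3 genes had in common. It lay at -101 bp in Tyr, at 43 bp in Tyrp1, inside the 5′ UTR, and at -151 bp in Dct, always in the forward orientation. The longest run of bases common to all 3 stretches was GTCATGTGCT, which takes in the M-box and its nearest neighbours. An M-box between 250 bases before and 50 after a TSS was present in all 3 genes, as in 7.52% of all 22367 protein-coding genes. The M-box was known in these 3 promoters beforehand, so its presence in all 3 is not a finding of these data.
Tyr promoter M-box, chr7:94642027-94642056, minus strand: agaaaaagttagTCATGTGctttgcagaag
Tyrp1 promoter M-box, chr4:80480059-80480088, plus strand: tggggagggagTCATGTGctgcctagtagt
Dct promoter M-box, chr14:118451602-118451631, minus strand: gtgcacttagggTCATGTGctaacaaagag

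The next stretches are from the promoter regions and the strongest distal region of each gene. At Tyr these are the 101 bases around the replicate 2 summit at -1.1 kb and 181 bases around the replicate 1 summit in intron 2.
Tyr -1.1 kb, chr7:94642994-94643094, minus strand: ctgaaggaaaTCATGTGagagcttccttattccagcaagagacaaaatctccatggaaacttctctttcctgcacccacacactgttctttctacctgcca
Tyr intron 2, chr7:94627595-94627775, minus strand: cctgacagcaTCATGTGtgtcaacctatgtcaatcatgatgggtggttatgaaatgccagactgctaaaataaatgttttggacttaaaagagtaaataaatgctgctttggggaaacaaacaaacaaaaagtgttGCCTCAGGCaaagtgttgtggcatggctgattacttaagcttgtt

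At Tyrp1 they are the 101 bases around the replicate 2 summit at -0.7 kb, around the replicate 2 summit in intron 3, where a TFAP2 site lies, and around the replicate 1 summit at 106.7 kb, and the 114 bases at -45.5 kb that the study's Tyrp1 enhancer ChIP-qPCR primers enclose.
Tyrp1 -0.7 kb, chr4:80479318-80479418, plus strand: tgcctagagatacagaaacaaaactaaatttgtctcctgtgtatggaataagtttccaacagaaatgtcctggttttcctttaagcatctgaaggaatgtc
Tyrp1 intron 3, chr4:80485683-80485783, plus strand: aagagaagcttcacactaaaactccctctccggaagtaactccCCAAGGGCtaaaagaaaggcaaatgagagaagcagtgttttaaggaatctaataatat
Tyrp1 106.7 kb, chr4:80586699-80586799, plus strand: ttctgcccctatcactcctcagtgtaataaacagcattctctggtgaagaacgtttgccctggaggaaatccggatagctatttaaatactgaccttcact
Tyrp1 -45.5 kb, chr4:80434567-80434680, plus strand: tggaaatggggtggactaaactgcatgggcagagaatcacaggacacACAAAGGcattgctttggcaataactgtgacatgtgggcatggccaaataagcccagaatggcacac

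At Dct they are 251 bases that take in the summits of the promoter peaks, their TFAP2 site and the M-box nearer to the peaks, and the 101 bases around the replicate 1 summit at -28.6 kb.
Dct promoter, chr14:118451688-118451938, minus strand: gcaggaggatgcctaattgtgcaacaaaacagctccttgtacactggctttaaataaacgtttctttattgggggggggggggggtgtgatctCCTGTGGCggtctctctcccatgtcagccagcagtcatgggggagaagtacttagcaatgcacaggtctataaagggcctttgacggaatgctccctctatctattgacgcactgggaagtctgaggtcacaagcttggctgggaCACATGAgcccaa
Dct -28.6 kb, chr14:118480001-118480101, minus strand: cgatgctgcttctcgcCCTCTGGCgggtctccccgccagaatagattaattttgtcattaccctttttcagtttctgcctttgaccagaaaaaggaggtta

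The 3 genes differed in how much TFAP2A binding the lists held. Tyrp1 had 15 peaks in 11 regions, of which 4 were shared, or 2 when the summits of the replicates also had to lie within 100 bp. Dct had 6 peaks in 4 regions, of which 2 were shared. Tyr had 4 peaks in 4 regions, and 0 were shared. The median protein-coding gene had 2 shared regions in the same window (quartiles 0 and 4), and 71.7% of genes had at least 1, so a shared region near Dct was not unusual. Tyrp1 had more shared regions than 71.6% of genes, and 28.4% of genes had 4 or more. For Tyr, 28.3% of all genes and 19.8% of the 2961 genes of like length also had 0. Counts per gene carry no error of their own. With 2 replicates, a 2-sided exact permutation test of 2 values against 2 cannot give a p below 0.333. No p is therefore given for any difference among the genes.

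**Figure D1:**
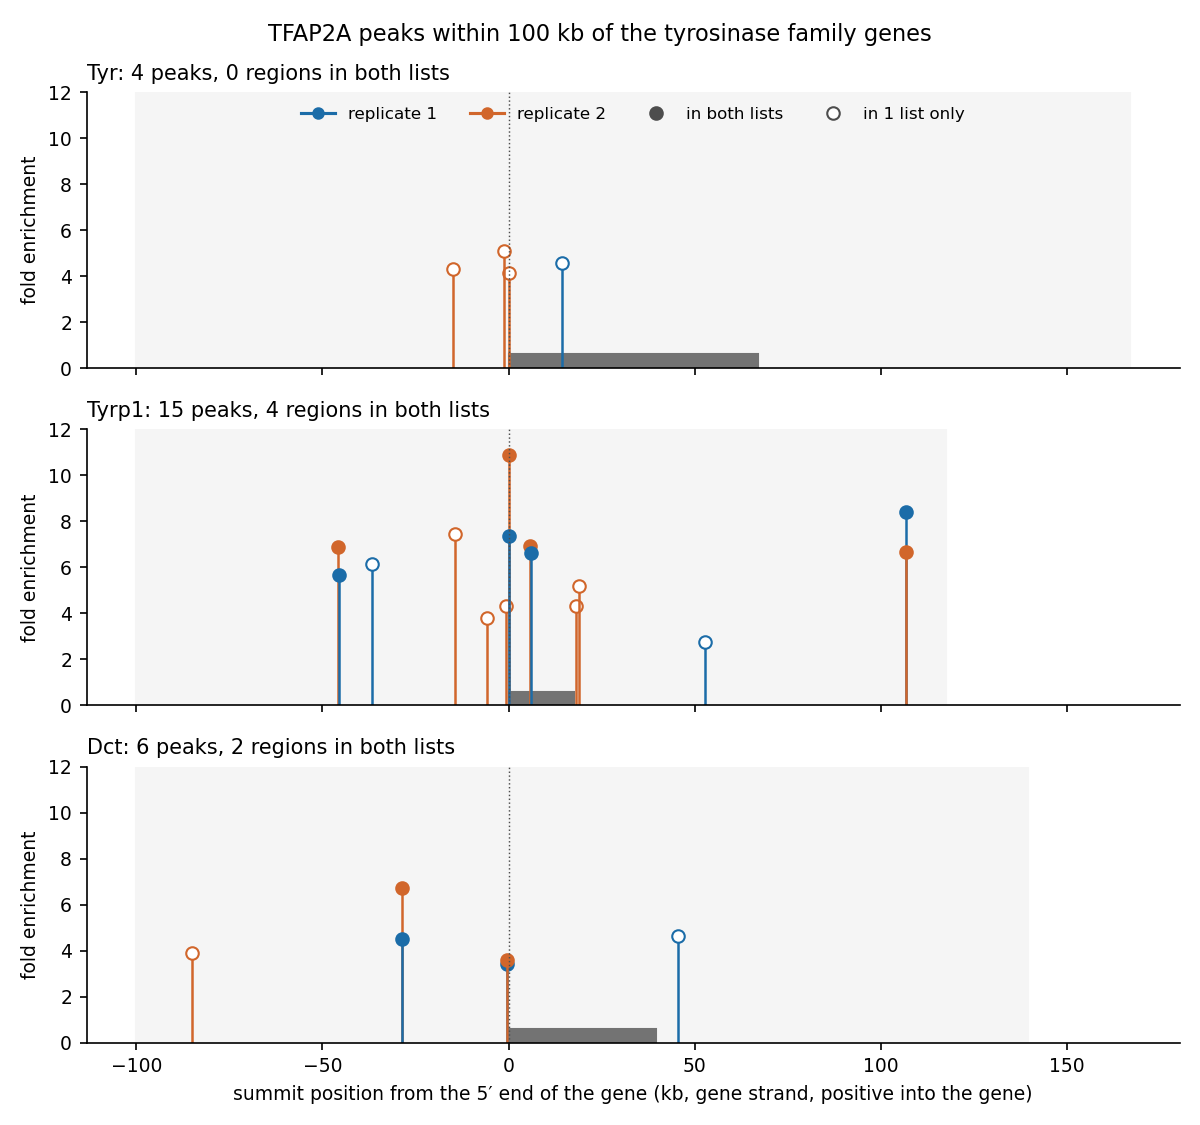
Fold enrichment of each TFAP2A peak (vertical axis) against the position of its summit in kb from the 5′ end of Tyr, Tyrp1 and Dct (horizontal axis), for replicate 1 (blue) and replicate 2 (orange). Filled points are peaks that overlap a peak of the other list, open points are in 1 list only, the dark bar is the gene body and the pale band is the searched window. The 4 open points of Tyr lie between 4.15 and 5.07, and Tyrp1 has the highest point, 10.9.

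Promoter calls differed between the lists at Tyr. In the replicate 1 list a promoter peak was present at Tyrp1 and Dct, as at 18.6% of all protein-coding genes. In the replicate 2 list it was present at Tyr, Tyrp1 and Dct, as at 20.9%. A shared promoter peak was present at Tyrp1 and Dct, as at 17.0%. Tyr belonged to the 3.84% of genes with a promoter peak in the replicate 2 list and none in the replicate 1 list. Enrichment here is each peak's fold enrichment over background as deposited.

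At Tyrp1 (ENSMUSG00000005994.8, on the plus strand of chromosome 4, 80480027 to 80497623) the region of highest mean enrichment was the promoter itself, from 80479981 to 80480605, although in replicate 1 alone the region at 106.7 kb was higher (8.40). Its enrichment was 7.35 in replicate 1 and 10.9 in replicate 2 (mean 9.13 ± 2.52, SD, n = 2). This mean was above 75.8% of the 16069 pairs of overlapping peaks in the genome. It was also above 85.0% of the 3795 genes with a shared promoter peak and a promoter peak in both lists, whose median was 5.40 (quartiles 4.12 and 7.51). The summits lay at 194 bp and 147 bp in the UTR, 10 bp downstream of another annotated Tyrp1 start in replicate 1 and at -37 bp from it in replicate 2. The M-box at 43 bp was inside the peaks of both replicates, 148 bp and 101 bp from their summits. A further promoter peak at -659 bp, from 80479291 to 80479514, was in the replicate 2 list only, with 4.31.

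Distal binding at Tyrp1 held 3 shared regions on both sides of the gene. The region at -45.5 kb, between genes from 80433980 to 80434931, had 5.68 in replicate 1 and 6.87 in replicate 2 (mean 6.28 ± 0.836, SD, n = 2). The region in intron 3, from 80485590 to 80486150, had 6.61 and 6.92, a mean of 6.77 ± 0.223. By enrichment these replicates lay closer together than at any other shared region of Tyrp1, although their summits were 217 bp apart. The region at 106.7 kb, from 80586522 to 80587228, had 8.40 and 6.67, a mean of 7.53 ± 1.22, and was the single shared region of the family with the higher value in replicate 1. That region lies in intron 1 of the neighbouring gene D4Bwg0951e, 30199 bp from its TSS in replicate 1, and peak lists cannot say which gene a distal region serves. The 4 means of Tyrp1 ran from 6.28 to 9.13, and within either replicate the promoter was above the -45.5 kb and intron 3 regions. The 106.7 kb region was above the promoter in replicate 1 and below it in replicate 2.

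Another 7 regions of Tyrp1 were in 1 list only. The strongest, at -14.4 kb from 80465430 to 80465859, had 7.47 in replicate 2, a value above 69.2% of that list, and no replicate 1 peak overlapped it. The region at -36.6 kb, from 80443322 to 80443622, had 6.14 in replicate 1. The remaining replicate 2 peaks had 3.79 at -5.7 kb, 4.31 at 18.0 kb and 5.21 at 19.0 kb, the last 2 just past the 3′ end of the gene. A replicate 1 peak at 52.9 kb was the weakest of the family, with 2.74, above 2.64% of its list. Upstream of Tyrp1 the lists therefore held 5 regions besides the promoter peak at the 5′ end, of which 1 was shared.

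At Dct (ENSMUSG00000022129.2, on the minus strand of chromosome 14, 118412014 to 118451468) both replicates had a promoter peak, but a weak one. The region from 118451733 to 118452023 had 3.43 in replicate 1 and 3.60 in replicate 2 (mean 3.51 ± 0.122, SD, n = 2). The mean was above 7.46% of all pairs and 11.9% of the same 3795 genes. The values of Dct and Tyrp1 did not overlap, since the lower Tyrp1 promoter value (7.35) was above the higher Dct value (3.60). The Dct summits lay at -410 bp and -329 bp, so the binding was upstream of the M-box at -151 bp, which was 114 bp outside the replicate 1 peak and 115 bp outside the replicate 2 peak. A second M-box, at -232 bp on the reverse strand, was 33 bp and 34 bp outside them.

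The stronger shared region of Dct was distal. It lay between genes at -28.6 kb, from 118479892 to 118480258, with 4.51 in replicate 1 and 6.72 in replicate 2 (mean 5.62 ± 1.56, SD, n = 2), and its replicates did not overlap those of the promoter. A region past the 3′ end of Dct, at 45.5 kb from 118405815 to 118406124, was in the replicate 1 list only, with 4.63. A region at -85.0 kb was in the replicate 2 list only, with 3.92, and lay in an exon of the neighbouring gene Gpr180, 107 bp from its TSS, so it was also a promoter peak of Gpr180. All 3 distal regions of Dct lay outside the gene body. When only the more enriched 50% of either list was used, Dct had 0 shared regions, at the promoter or elsewhere.

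At Tyr (ENSMUSG00000004651.4, on the minus strand of chromosome 7, 94574910 to 94641943) each region rested on 1 list. Replicate 2 had a peak over the 5′ end, from 94641902 to 94642130 with its summit at 18 bp in the UTR and an enrichment of 4.15, and another at -1101 bp, from 94642894 to 94643233, with 5.07. It also had a broad peak of 675 bp at -14.9 kb, from 94656365 to 94657039, with 4.29. The peak over the 5′ end took in the M-box at -101 bp, 116 bp from the summit, and the peak at -1101 bp held a further M-box at -1141 bp. Replicate 1 had a single peak, in intron 2 at 14.3 kb from 94627490 to 94627832, with 4.55. All 4 values were below the medians of their lists, which were 5.56 in replicate 1 and 5.75 in replicate 2. Since the lists hold no peak with a -log10 p below 5.05 in replicate 1 and 5.06 in replicate 2, a region missing from a list may still have had signal there, and weak binding in the other replicate was not detectable from these files.

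**Figure D2:**
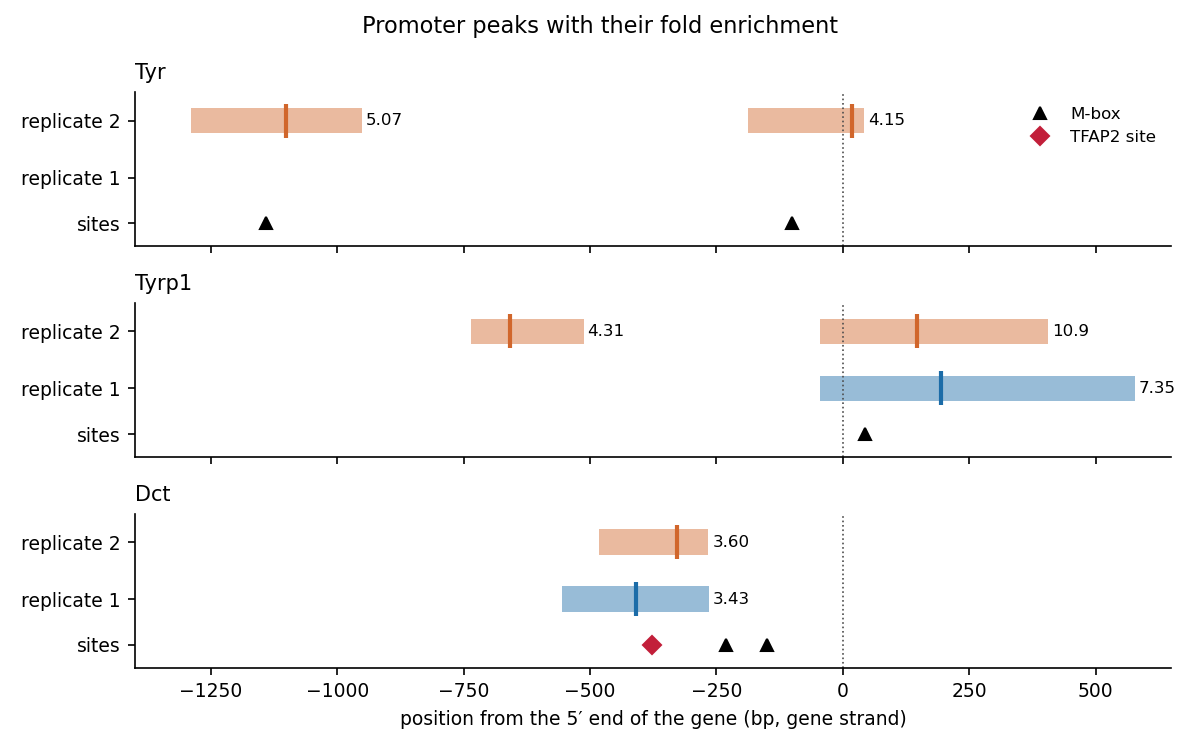
Promoter peaks of Tyr, Tyrp1 and Dct, with the position in bp from the 5′ end of the gene on the horizontal axis and 1 row for each replicate (bars are peak extents, ticks are summits, numbers are fold enrichment), above a row for the sites (triangles are M-boxes, diamonds are TFAP2 sites). The Tyrp1 peaks of both replicates span the 5′ end and the M-box at 43 bp, the Dct peaks stop short of the M-boxes at -232 bp and -151 bp, and Tyr has peaks in replicate 2 only, at 18 bp and -1101 bp.

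Agreement between the replicates was next compared within the shared regions. Over all 16069 pairs the ratio of replicate 2 to replicate 1 had a median of 1.05 and quartiles of 0.895 and 1.24. The intron 3 region of Tyrp1 and the promoter of Dct both had a ratio of 1.05. The promoter of Tyrp1 had 1.48 and the -28.6 kb region of Dct had 1.49, above 90.4% and 90.6% of pairs. At -45.5 kb from Tyrp1 it was 1.21 and at 106.7 kb 0.794, which was above 11.4% of pairs.

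**Figure D3:**
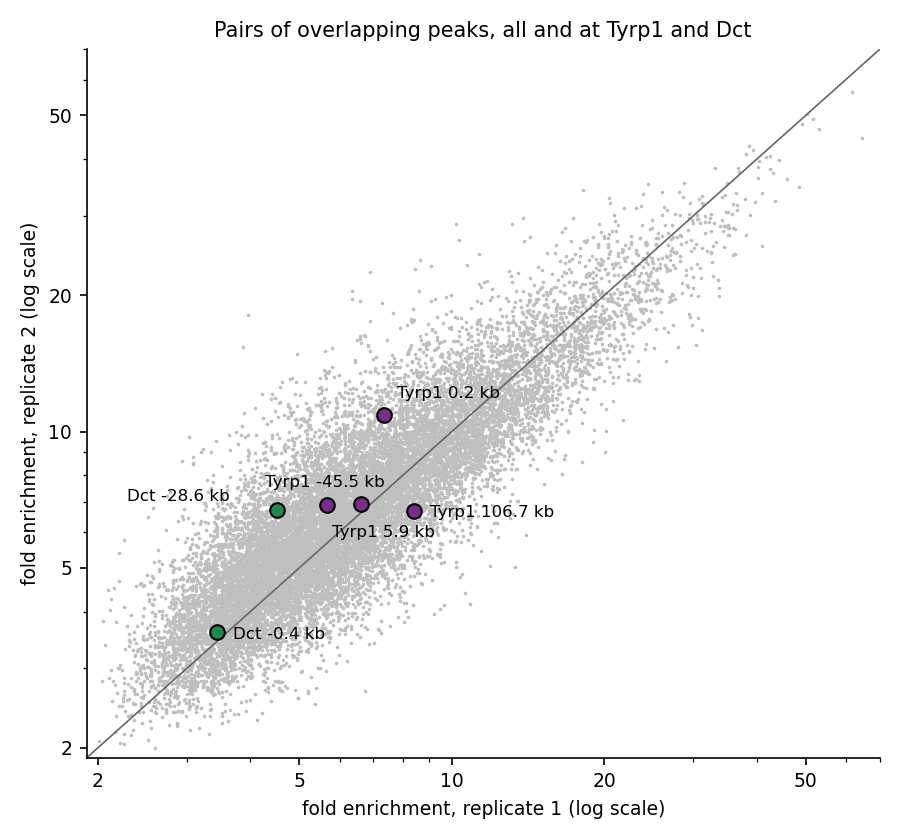
Fold enrichment in replicate 2 (vertical axis, log scale) against replicate 1 (horizontal axis, log scale) for all 16069 pairs of overlapping peaks (grey), with the 4 shared regions of Tyrp1 (purple) and 2 of Dct (green) named by their kb from the 5′ end. The line marks equal values. The promoter of Tyrp1 and the -28.6 kb region of Dct lie farthest above it, and the 106.7 kb region lies below it.

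The positions of the summits were compared in the same pairs. The median distance between summits of a pair was 24 bp, the upper quartile was 45 bp, and 5.32% of pairs were more than 100 bp apart. At Tyrp1 the distance was 406 bp at -45.5 kb, larger than in 99.4% of pairs, and 217 bp in intron 3, larger than in 98.5%. At the promoter of Tyrp1 it was 47 bp, at 106.7 kb 34 bp, at the promoter of Dct 81 bp and at -28.6 kb from Dct 17 bp. The replicate 2 peak at -45.5 kb was 952 bp wide and took in the whole replicate 1 peak of 338 bp.

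Whether a peak overlaps the other list goes with its enrichment over the whole data set, so the peaks in 1 list only were set beside peaks of like enrichment (within 10%) in the same list. For the replicate 2 peaks of Tyr the share of such peaks that overlapped a replicate 1 peak was 61.8% at the 5′ end, 66.7% at -1101 bp and 61.9% at -14.9 kb. For the replicate 1 peak in intron 2 of Tyr it was 81.9%. At Tyrp1 the share was 91.2% for the -36.6 kb peak and 86.3% for the -14.4 kb peak, so at those enrichments most peaks were matched in the other list and these were not. For the other 5 Tyrp1 peaks of 1 list it ran from 61.2% to 68.9%, and for those of Dct it was 81.7% at 45.5 kb and 61.2% at -85.0 kb. The part that sequencing depth had in any missing peak was not tested, since the number of reads behind a list is unknown.

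**Figure D4:**
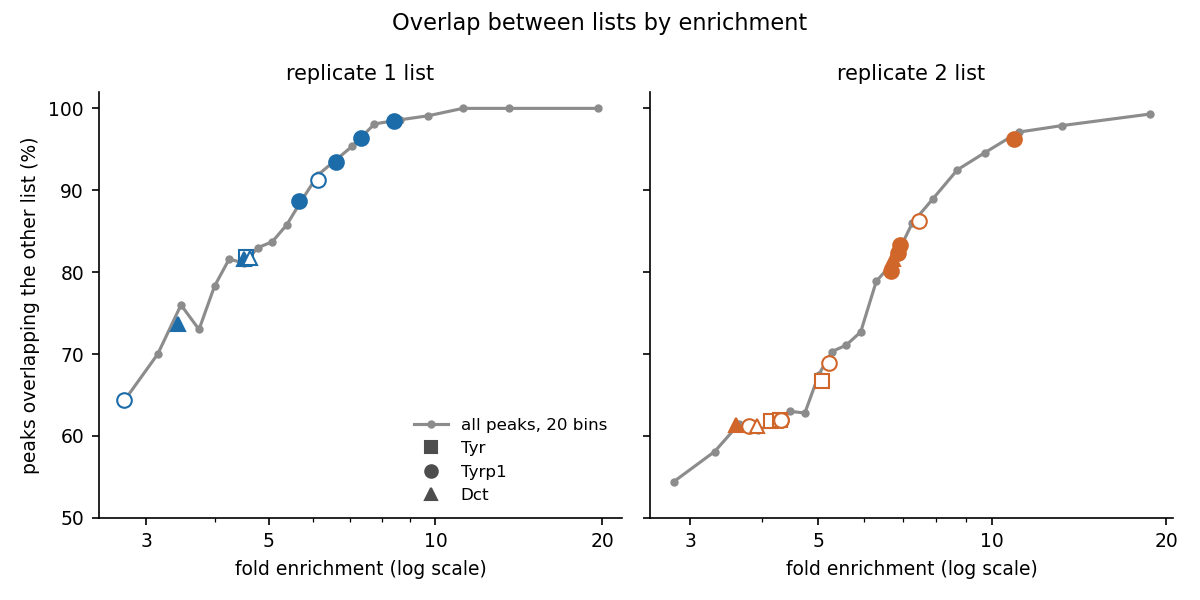
Percentage of peaks that overlap the other list (vertical axis) against fold enrichment (horizontal axis, log scale), for all peaks of each list in 20 bins of enrichment (grey) and, for each peak of Tyr (squares), Tyrp1 (circles) and Dct (triangles), the percentage among list peaks within 10% of its enrichment. Filled symbols overlap the other list and open symbols do not. Open circles at 6.14 in replicate 1 (91.2%) and 7.47 in replicate 2 (86.3%) are the Tyrp1 peaks at -36.6 kb and -14.4 kb.

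TFAP2 sites divided the genes. A GCCNNNGG site lay wholly within 50 bp of the summit (that of replicate 1 in shared regions) in 4 of 4 regions of Dct, in 0 of 11 of Tyrp1 and in 0 of 4 of Tyr, against 54.9% of all 23562 regions on the assembled chromosomes. Among shared regions the share was 57.1%, and windows of the same length 400 bp to either side held a site in 15.0% of cases. Anywhere in the region, a site was present in 4 of 4 at Dct, 2 of 11 at Tyrp1 and 1 of 4 at Tyr, against 78.7% of all regions. With the longer consensus GCCNNNGGC, within 50 bp, 1 of the 4 Dct regions had a site, the Gpr180 exon, against 18.0% of all regions. In the Dct promoter the site was at -377 bp, between the summits, and at -28.6 kb it was at -30 bp from the replicate 1 summit. The Gpr180 exon region held 7 overlapping or separate matches, 3 of them within 50 bp. At Tyr the sequence GCCTCAGGC in intron 2, printed above, reads as a site on both strands and straddled the edge of the window, 49 bp and 50 bp from the summit, and was not counted because a site had to lie wholly inside.

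In intron 3 of Tyrp1 the site was at -220 bp from the replicate 1 summit and ended on the replicate 2 summit, so its place depended on the replicate. Taking the replicate 2 summit where there was one put a site within 50 bp in 1 of 11 Tyrp1 regions, against 57.1% of all regions under the same choice. The promoter of Tyrp1, its region of highest mean, held 0 matches over its 625 bp. Base composition was set beside the sites. All 11 regions of Tyrp1 (34.4% to 46.2% G and C) and all 4 of Tyr (32.4% to 42.4%) were below the median of all regions, 47.2%. The 4 of Dct had 44.1%, 47.4%, 48.1% and, in the Gpr180 exon, 74.8%, so the top of the Dct range rested on that 1 region. The 1 Tyr region with a site had the lowest value of that gene, 32.4%, and the Tyrp1 promoter, with 46.2%, held 0. Among all regions in the Tyrp1 range 46.3% had a site within 50 bp, in the Tyr range 44.0% and in the Dct range 59.6%. A match of these letters is a description and not a measured binding site.

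M-boxes were arranged otherwise. The string TCATGTG was present in 3 of 4 regions of Tyr, 2 of 11 of Tyrp1 and 0 of 4 of Dct, against 9.19% of all regions and 11.1%, 11.4% and 8.20% of the regions in the same ranges of base composition. At Tyr the matches were in the region over the 5′ end, in that at -1.1 kb and in intron 2, and at Tyrp1 in the promoter and in the replicate 2 region at -5.7 kb, where the match was 28 bp from the summit. Within 50 bp of the summit an M-box was present in 1 region of Tyr, 1 of Tyrp1 and 0 of Dct, against 2.28% of all regions. Of other sites known in melanocytes, a SOX site (ACAAAGG) lay 123 bp from the replicate 1 summit at -45.5 kb from Tyrp1, within the 114 bases printed above, and AP-1 sites (TGACTCA or TGAGTCA) lay in the -14.4 kb and 106.7 kb regions. The E-box CACGTG was found in the -14.4 kb region and in the Gpr180 exon. Over all regions 19.7% held a SOX site, 18.4% an AP-1 site and 7.14% the E-box.

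The study's ChIP-qPCR primers were placed in mm9 by exact match, to see which of these regions they sample. The Tyrp1 enhancer pair encloses 114 bp, from 80434567 to 80434680 on chromosome 4, inside the peaks of both replicates at -45.5 kb. The forward primer listed for Dct matched chromosome 14 from 118451818 to 118451837, inside the promoter peaks of both replicates and next to the TFAP2 site, which runs from 118451838 to 118451845. The reverse primer listed for Dct matched chromosome 6 from 97931742 to 97931761, in intron 2 of Mitf, and matched nowhere else, so no product could be placed at Dct. The same sequence is listed as the reverse primer of the Mitf enhancer pair, so the entry for Dct may be a copying error. The study itself reports TFAP2A enrichment at Dct by ChIP-qPCR in melan-a cells.

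Other pigment genes were read in the same way from a list of 14 that held the melanosome structure genes Pmel and Mlana, the receptors Gpr143 and Mc1r, the transporters Slc45a2, Slc24a5, Oca2, Slc7a11 and Atp7a, the trafficking genes Rab38, Rab32, Ap3b1 and Hps4, and Mitf. This list was chosen with earlier results of these data known, so its counts are a description and not a test. A shared promoter peak was present at 6 of the 14, and the replicate 1 and replicate 2 lists alone gave 6 and 7, beside 17.0%, 18.6% and 20.9% of all protein-coding genes. The means were 10.7 ± 3.58 at Mitf, 10.3 ± 0.447 at Mc1r, 8.36 ± 3.50 at Mlana, 8.34 ± 3.42 at Slc45a2, 4.99 ± 2.05 at Hps4 and 4.91 ± 0.992 at Oca2 (SD, n = 2). The Tyrp1 promoter (9.13 ± 2.52) fell among the higher 4, and the Dct promoter (3.51 ± 0.122) was below all 6 by mean, although its higher value was above the lower value of Hps4 (3.54). Tyr shared its pattern of a promoter peak in replicate 2 alone with 1 of the 14, Gpr143 (7.23). A shared region in the body or within 100 kb was present at 13 of 14, the exception being Slc24a5, with a median of 3.5 a gene. Over all protein-coding genes 71.7% had such a region, and the median was 2.

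By the distance between log2 enrichments of the strongest promoter peak over the 2 replicates, with 0 for no peak, the gene most like Tyr was Gpr143 (distance 0.51). For Tyrp1 it was Slc45a2 (0.31), with Mitf and Mlana at 0.32, and for Dct it was Oca2 (0.70). The distance of Tyr from Gpr143 rests on replicate 2 alone, since neither gene had a promoter peak in replicate 1, and the others rest on 2 libraries. An M-box in the promoter was present in 4 of the 14, against all 3 of the tyrosinase family, where it was known beforehand.

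The limit of 100 kb left out strong regions. The nearest peaks beyond it at Tyr were a shared region 185.0 kb from the gene body, with 24.4 in replicate 1 and 22.0 in replicate 2, which lay at -4.7 kb from the TSS of Nox4. At Tyrp1 a replicate 1 peak 101.1 kb away had 5.23, and the nearest shared region, 179.2 kb away, had 21.7 and 17.2. At Dct a replicate 2 peak 170.8 kb away had 2.98, and the nearest shared region, 227.7 kb away, had 5.19 and 7.36. The farthest peaks inside the limit were 14.9 kb from Tyr (4.29), 89.1 kb from Tyrp1 (8.40) and 85.0 kb from Dct (3.92).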

How the data were processed

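TFAP2A ChIP-seq of melan-a cells gave a deposited peak list for either ChIP replicate, with peaks called separately and not on pooled reads. The submitters' processing notes name BWA, MACS 1.4.2 and build mm9, without parameters. The lists have summit and q-value columns in the narrowPeak layout, which MACS 2 writes, so the version is uncertain, and whether the enrichment was taken at the summit or over the whole peak is not given in the sources used here. For every peak the deposited lists give a fold enrichment (a ratio over background), the -log10 of its p-value and q-value, a score (the whole part of 10 times -log10 p, not used) and a summit. Read depth was unknown, so precision is given as the spread between replicates. Nothing in the files says how far the replicates were independent beyond their labels.

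Peaks overlapping by at least 1 bp counted as shared, the study's own rule. Pairs were each other's largest overlap. Genes were the 22367 protein-coding genes of GENCODE vM1 on the assembled mm9 chromosomes, and 0 peaks ran past a chromosome end. Sites were searched within 50 bp of summits and in flanks 400 bp away. Genes of like length served as a second background for counts per gene. The text names all regions of the 3 genes, their neighbours and the 14 listed pigment genes. Of the 14, enrichments are given for those with a promoter peak and distances for those most like each member. Members, lists and motifs were chosen with earlier results of these data known. With 2 replicates no test was run.

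Alternatives were a stricter q, the upper 50% of each list, a reciprocal overlap of 50%, summits within 100 bp, each list alone, a window of 50 kb, narrower promoters, 5′ ends of genes only, -log10 p as strength, and other site windows, consensus and summits. Python 3.11.15, numpy 2.4.6, pandas 2.3.3, pysam 0.24.0, matplotlib 3.10.9 and samtools 1.23.1 were used, and the scripts recovered 3000 of 3000 overlaps and 1000 of 1000 sites planted in simulated data.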

Additional observations from a re-analysis of the deposited data

How the results depend on the processing

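Of 77 values recomputed under the alternatives, 63 stayed within 1.5 times the reported count or 1 SD of the reported enrichment. Part of these 63 was fixed in advance. The 0 shared regions of Tyr could not rise under stricter rules, and every GCCNNNGGC site is also a GCCNNNGG site. The value of 1 replicate at the same region always lies within 1 SD of the mean of 2. The shared regions of Tyrp1 went from 4 to 2 with a reciprocal overlap of at least 50%, which kept the promoter and intron 3. They also went to 2 with summits within 100 bp, which kept the promoter and the 106.7 kb region. With peaks limited to the more enriched 50% of a list, Dct kept 0 shared regions and 0 shared promoter regions, so its highest enrichment had no value there, and genes with a shared promoter peak fell from 17.0% to 6.40%. With 1 list alone Tyr had from 1 to 3 regions and from 0 to 2 promoter regions, Tyrp1 from 6 to 9 and from 1 to 2, and Dct 3 and 1 in either list. The highest enrichment was from 8.40 to 10.9 at Tyrp1 and from 4.63 to 6.72 at Dct, the share of genes from 18.6% to 20.9%. In the replicate 1 list alone the highest value of Tyrp1 was at 106.7 kb and that of Dct at 45.5 kb, not where the means put them. The order by -log10 p put the same regions first at both genes. Regions with a TFAP2 site went from 0 to 1 at Tyr within 100 bp of the summit, from 0 to 1 at Tyrp1 within 100 bp and with the replicate 2 summit, and from 4 to 1 at Dct with GCCNNNGGC, where the shares of all regions were 68.7%, 57.1% and 18.0%. The cause was not tested. No paired analysis was possible because 1 group alone has values, so no second group could be paired with it by replicate number, and regions were compared within each replicate without a test.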
